A study of Homo sapiens with 13 samples.

Results

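Cultured hFOB 1.19 osteoblasts expressed 175 of the 2124 LINC genes of the count table. LINC genes are long intergenic non-coding RNA genes that carry a number in place of a functional name, and the members were the rows whose symbol was LINC followed by digits only and whose mean level over the 12 libraries was at least 0.5 CPM (a gene's reads scaled by the total reads of its library). The table held 43836 gene rows in all, 1114 LINC genes had at least 1 read, and 939 of those stayed below the threshold. The mean level over all libraries chose the members, so those levels are given as a description. All 175 passed the filter on low counts.

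Long non-coding RNAs are transcribed and often spliced and polyadenylated like mRNAs but are not translated into a known protein. Some act in the nucleus on chromatin or on the transcription of nearby genes, others bind proteins or microRNAs in the cytoplasm, and many have no assigned role. In bone-forming cells a number of them have been linked to differentiation and to the control of RUNX2, the master transcription factor of the lineage.

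The study asked how a plant polyphenol and anthocyanins act on serum-starved human osteoblasts. Poly(A)-selected RNA was sequenced from hFOB 1.19, a single immortalised human fetal osteoblast line. The 2 positive control libraries came from cells kept in 10% fetal bovine serum (FBS), and the 2 negative control libraries from cells without FBS. The 3 RES libraries came from FBS-free cells given resveratrol, the 3 POG libraries from FBS-free cells given peonidin-3-glucoside, and the 2 DEG libraries from FBS-free cells given the agent labelled DEG, each agent at 1 µg/mL. Both controls received the DMSO vehicle. The labels do not spell out DEG; the treatment text lists delphinidin-3-glucoside beside the other agents without tying it to that code. A labelled DEG replicate 3 had no column in the table and was not analysed here.

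Each library held between 38464619 and 51416358 counted reads. The members took 0.0700% to 0.0808% of them, with a mean of 0.0706% in the positive controls, 0.0770% in the negative controls, 0.0802% with RES, 0.0747% with POG and 0.0738% with DEG. The osteoblast label was checked on 10 marker genes. Type I collagen and the matrix protein SPARC were abundant (COL1A1 at a mean of 2674 CPM, COL1A2 at 1227 CPM, SPARC at 1070 CPM), and RUNX2 stood at 47.8 CPM. The other osteoblast markers were low: ALPL had a mean of 4.52 CPM, SPP1 1.64, DLX5 1.17 and SP7 0.102 CPM, BGLAP ran from 0.430 to 2.02 CPM over the libraries, and IBSP had 1 read in all libraries together. CD3E (T cells) had 0 reads, and PTPRC (leukocytes), CDH5 (endothelium) and ADIPOQ (fat cells) were each below 0.2 CPM in every library, whereas the epithelial keratin KRT8 was at 219.8 CPM. Of the other 10 markers of such cell types, SOX9 (2.84 CPM), VWF (2.80 CPM) and PECAM1 (1.71 CPM) passed a mean of 1 CPM.

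In the GENCODE release 44 annotation of hg38, 163 members were of the lncRNA class and the other 12 were transcribed pseudogenes. Pseudogenes resemble other genes, so their counts are uncertain where reads could be assigned to either copy. Their merged exons spanned a median of 3823 bases, from 143 to 33198, in a median of 4 exons, and 27 members had 1 exon only. Chromosome 1 held 28 members and chromosome 2 held 15. The gene body overlapped that of the nearest protein-coding gene for 21 members, 75 lay within 10 kb of one and 28 beyond 100 kb. In 8 cases the LINC start faced a protein-coding start on the other strand within 1 kb, as LINC01126 does next to ZFP36L2, which encodes an mRNA-decay factor, and LINC02202 next to EBF1, which encodes a transcription factor. Exons of 60 members overlapped exons of another counted gene, 49 of them on the opposite strand and 15 on the same strand; the strand setting of the read counting is not given in the sources used here, so reads of such pairs may not be told apart. Members with an overlap on the opposite strand include LINC02783, LINC01128, LINC02381, LINC00511, LINC00882, LINC01465, LINC02454, LINC02256, LINC01252, LINC01116 and LINC00339. The identifier versions matched release 44 for 46 members, so exon models used for counting may differ from those described.

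The promoters of 4 members are printed because these genes had the largest changes with serum among members with a promoter entry: LINC02783 and LINC01119 were higher with FBS, and LINC02701 and LINC03040 were lower. Each line is 300 bases from RefSeq (GRCh38.p14), 250 before to 50 after the annotated start, 5′ to 3′ on the gene's + strand. Capitals mark matches, on either strand, to the motifs searched. They are LINC02783 at chr1:17189539-17189838, LINC01119 at chr2:46827614-46827913, LINC02701 at chr11:68868110-68868409 and LINC03040 at chr6:44000335-44000634.
LINC02783: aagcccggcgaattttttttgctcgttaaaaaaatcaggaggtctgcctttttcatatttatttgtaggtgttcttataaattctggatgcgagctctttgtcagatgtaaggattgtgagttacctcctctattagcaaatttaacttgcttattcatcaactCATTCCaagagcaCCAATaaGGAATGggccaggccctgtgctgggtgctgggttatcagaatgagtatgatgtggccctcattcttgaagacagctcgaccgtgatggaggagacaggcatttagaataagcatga
LINC01119: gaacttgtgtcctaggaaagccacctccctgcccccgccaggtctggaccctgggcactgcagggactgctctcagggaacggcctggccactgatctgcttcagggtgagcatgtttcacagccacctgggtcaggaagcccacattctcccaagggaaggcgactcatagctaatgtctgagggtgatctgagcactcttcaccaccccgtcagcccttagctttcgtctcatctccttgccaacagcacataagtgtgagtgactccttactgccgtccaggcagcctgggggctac
LINC02701: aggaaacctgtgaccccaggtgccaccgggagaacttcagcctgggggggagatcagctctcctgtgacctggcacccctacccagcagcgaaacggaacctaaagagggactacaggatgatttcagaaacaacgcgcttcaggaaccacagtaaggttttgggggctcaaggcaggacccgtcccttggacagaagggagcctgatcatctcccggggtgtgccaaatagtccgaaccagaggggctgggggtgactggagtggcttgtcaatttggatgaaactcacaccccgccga
LINC03040: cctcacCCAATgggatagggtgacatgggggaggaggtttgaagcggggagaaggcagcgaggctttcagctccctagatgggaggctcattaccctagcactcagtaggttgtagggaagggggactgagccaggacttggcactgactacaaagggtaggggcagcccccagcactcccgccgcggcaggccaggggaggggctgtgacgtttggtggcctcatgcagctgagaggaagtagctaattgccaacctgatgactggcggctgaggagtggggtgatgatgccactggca

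The RefSeq start lay 6 bases from the GENCODE gene start for LINC02783 and 5 bases for LINC03040, but 2304 bases from it for LINC02701 and 11167 bases for LINC01119, so the latter windows belong to other annotated starts. LINC03061 and LINC02957 had no entry. The motifs were AP-1 (TGANTCA), CRE (TGACGTCA), the E-box (CACGTG), the CCAAT box (CCAAT), the GC box (GGGCGG) and TEAD (GGAATG). The LINC02783 window held 1 CCAAT box and 2 TEAD motifs, the LINC03040 window held 1 CCAAT box, and the LINC01119 and LINC02701 windows held 0 matches. Over the 107 members with a promoter entry, 10.3% held AP-1 against 7.71% of all 35116 promoters, 2.80% against 1.85% a CRE, 7.48% against 7.26% an E-box, 37.4% against 34.6% a CCAAT box, 55.1% against 44.95% a GC box and 11.2% against 14.03% a TEAD motif. These shares are descriptions of letters in a window, not of bound factors.

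Most members were weakly expressed. Their mean level ran from 0.5045 to 40.95 CPM with a median of 1.68 CPM, 40 members reached 5 CPM and 19 reached 10 CPM. The 6 most abundant were LINC00963, LINC02693, LINC02381, LINC02210, LINC00667 and LINC00294. Per kb of merged exon the order changed, since LINC00963 and LINC02210 have long exon models: LINC01537 stood at 9.34 CPM per kb, LINC00294 at 7.42, LINC02381 at 7.27, LINC00963 at 2.91, LINC00667 at 2.72, LINC02693 at 2.24 and LINC02210 at 2.03. LINC01145 had the highest value, 59.1 CPM per kb, on an exon model of 143 bases. Just inside the threshold were LINC00629 at 0.5045 and LINC01133 at 0.506 CPM, and just outside were LINC01836 at 0.499 and LINC02714 at 0.4885 CPM. For 11 members the mean without their highest group was under the threshold, so that these members owed their place to that group; among those described below they are LINC01133, LINC01465, LINC02594 and LINC00605.

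Across the 5 groups, 75 members (42.9%) differed by the edgeR quasi-likelihood F test at a false discovery rate (FDR) under 0.05, beside 55.8% of all 17092 genes tested. Without the positive controls 42 members differed among the other 4 groups. In the pairwise tests 93 members were called in at least 1 of 7 comparisons and 82 in none. The ratio of the highest to the lowest group mean had a median of 1.51 and reached 2 in 39 members. It was 8.06 for LINC03061 and 1.05 for LINC00339, a gene of a bone density locus near CDC42 and WNT4. Group means were most often highest with RES (53 members) and most often lowest in the positive controls (75 members). No share over all genes is given for these ranks, for the 39 members, for the 42 or for the 93, so these counts are descriptions only. Nothing in the labels says that the libraries of a group came from separate cultures, so p-values measure the spread between these libraries, which may be technical.

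**Figure D1:**
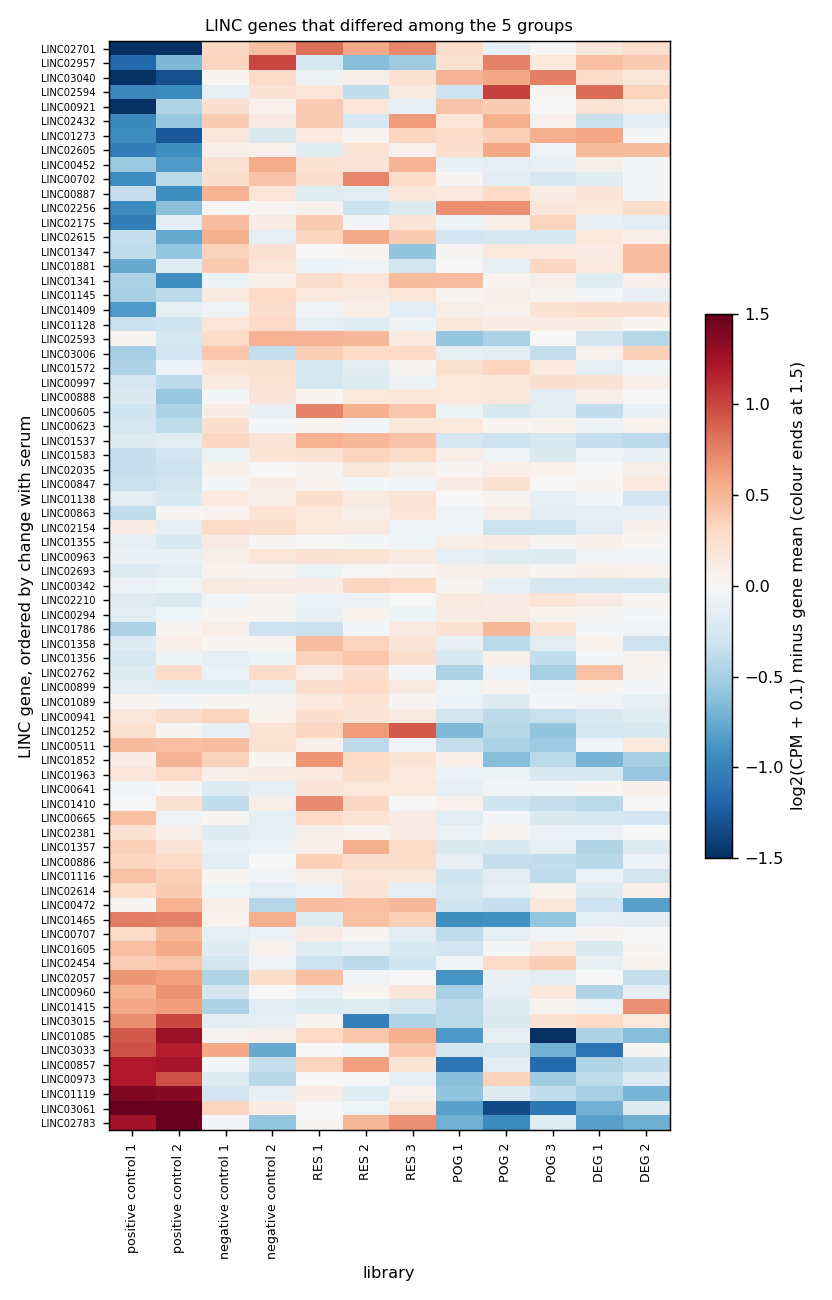
Level of the 75 LINC genes that differed among the 5 groups (rows) in each of the 12 libraries (columns), as log2(CPM + 0.1) minus the gene's mean, with TMM-scaled CPM and colours that end at 1.5. Rows are ordered by the change with serum: the top rows are low and the bottom rows high in the positive controls, and the libraries of a group mostly share their colours.

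Serum gave the widest differences. With FBS against without, 63 of the 175 members were called (36.0%) by the edgeR exact test, beside 42.4% of all genes tested. Of these 18 rose and 45 fell, while the calls over all genes were close to even, 21.4% of all genes tested higher and 20.9% lower. The median log2 fold change of the members was −0.11 and that of all genes −0.01. At least a 2-fold difference was reached by 21 of the called members, a description only, since no share over all genes is given. Among called genes the median absolute log2 change was 0.74 in the members and 0.30 in all genes. It was 0.53 in other called lncRNA genes of at least 0.5 CPM. Other lncRNA genes of at least 0.5 CPM leaned the same way, with 56 higher and 102 lower of 662. In bulk RNA, fewer cells with a transcript and less of it per cell cannot be told apart.

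Among the 4 largest rises, LINC01119 had the highest level: 11.98 and 11.71 TMM-scaled CPM with FBS against 3.67 and 4.10 without. TMM scaling adjusts the library totals for differences in composition, and all library values below are on that scale. The rise was 3.05-fold (log2 1.61, SE 0.13, adjusted p = 1.73e-33), and no library of the other 4 groups passed 5 CPM. Some reads may belong to LINC01118, whose exons overlap it on the same strand.

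LINC03061, a chromosome 13 gene with 2 exons, stood at 6.92 and 7.21 CPM with FBS against 2.45 and 2.11 without (3.09-fold, log2 1.63, SE 0.18, adjusted p = 1.03e-20). LINC02783, which lies 7511 bases from PADI1, a gene for a protein-citrullinating enzyme, had 1.52 and 1.85 CPM against 0.568 and 0.352 (log2 1.86, SE 0.37, adjusted p = 9.41e-07). Its promoter was the one with 2 TEAD motifs, and whether they had a part in this rise was not tested. LINC00973 had 1.52 and 1.28 CPM against 0.516 and 0.427 (log2 1.57, SE 0.37). The groups did not overlap in any of these genes, but the rule that named them required this.

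LINC02701 showed the largest fall with serum. It stood at 0.769 and 0.830 CPM with FBS and at 3.56 and 3.95 without, a 4.70-fold lower level (log2 −2.23, SE 0.20, adjusted p = 2.72e-26), and the FBS-free libraries of all groups lay between 2.63 and 5.14 CPM. LINC02957 had 0.324 and 0.498 CPM against 1.11 and 1.81 (log2 −1.84, SE 0.36). LINC03040 had 0.546 and 0.640 CPM against 1.78 and 2.16 (log2 −1.74, SE 0.25), with every FBS-free library at 1.66 CPM or more. LINC02594 was near the detection threshold at 0.182 and 0.190 CPM against 0.413 and 0.553 (log2 −1.37, SE 0.57, adjusted p = 0.0287), and its call was lost in 5 of 10 alternatives, with an adjusted p of 0.198 without negative control replicate 2.

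Some abundant members were also called. LINC01128 had 17.2 and 17.6 CPM with FBS against 24.6 and 26.8 without (log2 −0.57, SE 0.07), and LINC00963, first described in prostate cancer cells, had 37.96 and 37.6 against 43.4 and 46.3 (log2 −0.25, SE 0.05). LINC02693 fell by 0.22 on the log2 scale, while LINC02381 rose from 27.6 and 28.8 to 36.7 and 33.6 CPM (log2 0.32, SE 0.06). LINC00667 did not pass the test (log2 0.07). LINC02210 fell by 0.19 on the log2 scale, a call lost without negative control replicate 2 (adjusted p = 0.102), and its exons are shared with the readthrough transcript LINC02210-CRHR1.

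**Figure D2:**
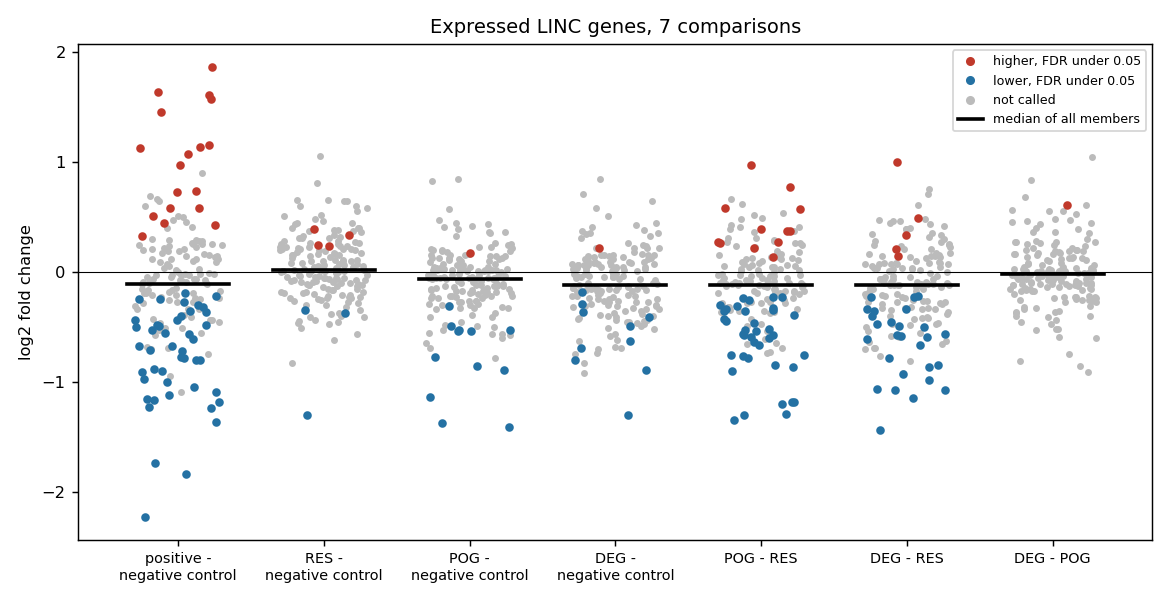
Log2 fold change (vertical axis) of each of the 175 LINC genes in 7 comparisons (horizontal axis). Red and blue points passed FDR under 0.05 upward and downward, grey points did not, and the black bar is the median of all members; falls outnumber rises in the serum, POG and DEG columns, and 1 member is coloured for DEG against POG.

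With RES, few members were called. Against the negative control 7 were called, 4 higher and 3 lower. Over all genes tested 11.2% were called, 4.94% higher and 6.21% lower. The count of members was 4 without negative control replicate 2, 11 with a filter on a mean of at least 1 CPM and 15 with dispersions from the 2 groups compared. All but 1 of the 7 had a mean of 5 CPM or more. The exception and the largest change was LINC02957, at 0.695, 0.514 and 0.561 CPM with RES against 1.11 and 1.81 (log2 −1.30, SE 0.30, adjusted p = 0.00037). This fall was lost without negative control replicate 2, the higher of its controls (adjusted p = 0.154).

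LINC01128 was the clearest fall with RES: 19.8, 19.1 and 20.5 CPM against 24.6 and 26.8 (log2 −0.38, SE 0.06, adjusted p = 1.40e-07), a level between the positive and the negative controls. LINC00997, which overlaps the pseudogene DPY19L1P1 on the other strand, had 10.1, 10.5 and 11.4 CPM against 13.25 and 13.95 (log2 −0.35, SE 0.08), with an adjusted p of 0.0618 without negative control replicate 2. Both genes also fell with FBS. The FBS, RES, POG and DEG comparisons with the negative control share the same 2 negative control libraries, so their changes are not independent.

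The rises with RES were small and tight. LINC00899 had 11.5, 12.0 and 10.7 CPM against 8.52 and 8.98 (log2 0.38, SE 0.09), LINC00641 had 20.9, 20.5 and 20.4 against 16.0 and 16.6 (log2 0.34, SE 0.07), and LINC02381 had 33.3, 32.6 and 34.0 against 27.6 and 28.8 (log2 0.24, SE 0.06). The groups did not overlap in any of them, which the rule that named them required. The LINC02381 call was lost without negative control replicate 1 (adjusted p = 0.0843). With plain library totals in place of TMM scaling, 7 members were higher and 3 lower, against 4 and 3 with TMM.

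With POG, 13 members were called against the negative control (7.43%), 1 higher and 12 lower, beside 14.5% of all genes tested (5.93% higher and 8.57% lower). Without negative control replicate 2 the count was 6. LINC03061 had 1.065, 0.703 and 0.861 CPM with POG against 2.45 and 2.11 (log2 −1.38, SE 0.21, adjusted p = 5.58e-10), so that the gene raised by FBS was lowest with POG. LINC00963, the most abundant member, had 36.9, 35.9 and 35.5 CPM against 43.4 and 46.3 (log2 −0.31, SE 0.05, adjusted p = 1.445e-08), all below every negative control library.

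LINC00941 and LINC00511, both studied in tumour cells, also fell with POG. LINC00941 had 5.99, 5.53 and 5.745 CPM against 9.19 and 7.54 (log2 −0.54, SE 0.10). LINC00511 had 1.18, 1.07 and 1.01 CPM against 2.14 and 1.785 (log2 −0.85, SE 0.22), a call lost without negative control replicate 1 (adjusted p = 0.0882). LINC02593 had 1.20, 1.29 and 1.85 CPM against 2.27 and 2.69 (log2 −0.77, SE 0.21), with an adjusted p of 0.123 without negative control replicate 2.

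Some of the POG falls rest on few reads. LINC01465 had 0.200, 0.204 and 0.280 CPM against 0.491 and 0.729 (log2 −1.41, SE 0.42) and lost its call without negative control replicate 2 (adjusted p = 0.230). LINC01503 differed by −1.14 (SE 0.39) and LINC01085 by −0.90 (SE 0.34) on the log2 scale, and their calls were lost in 5 of 11 and 6 of 12 alternatives. The only rise, LINC02210, was from 30.5 and 31.7 to 34.8, 33.9 and 36.2 CPM (log2 0.17, SE 0.05, adjusted p = 0.0173). Its call was lost in 3 of 12 alternatives. These were the exact tests without either negative control library and without POG replicate 3 (adjusted p = 0.109 for the last).

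With DEG, 11 members were called against the negative control (6.29%), 1 higher and 10 lower, beside 9.63% of all genes tested (3.52% higher and 6.11% lower). This count was 5 without either negative control library, 6 without DEG replicate 1 and 3 without DEG replicate 2. LINC00882 had 0.465 and 0.254 CPM against 0.878 and 0.905 (log2 −1.30, SE 0.40), LINC00638 had 1.16 and 0.814 against 1.834 and 1.835 (log2 −0.89), and LINC02593 had 1.498 and 1.348 against 2.27 and 2.69 (log2 −0.80, SE 0.24). Each lost its call in 3 alternatives, each of them with 1 library left out. LINC03061 had 1.14 and 1.68 CPM (log2 −0.69, SE 0.22) and lost its call without negative control replicate 1 or DEG replicate 1. The rise of LINC00641 to 18.5 and 19.3 CPM (log2 0.21, SE 0.07, adjusted p = 0.0478) was lost in 7 of 11 alternatives.

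LINC01537 set the compounds apart. Its level was 31.9, 31.5 and 29.8 CPM with RES, 27.6 and 25.3 in the negative controls, 19.4 and 19.7 with FBS, 18.6, 17.9 and 18.5 with POG and 17.3 and 16.8 with DEG. The FBS, POG and DEG libraries all lay below the negative controls, and the RES libraries all above. Against the negative control the log2 fold changes were 0.23 with RES (SE 0.06, adjusted p = 0.00193), −0.44 with FBS (SE 0.07), −0.53 with POG (SE 0.06, adjusted p = 2.497e-15) and −0.63 with DEG (SE 0.07, adjusted p = 4.35e-17). The rise with RES was lost without negative control replicate 2 (adjusted p = 0.174). The gene is on chromosome 11 (hg38, 72570660 to 72573229, + strand), has 2 exons, and lies 2912 bases from PDE2A, which encodes a cyclic nucleotide phosphodiesterase. No member was called in the same direction against the negative control with all 3 compounds.

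**Figure D3:**
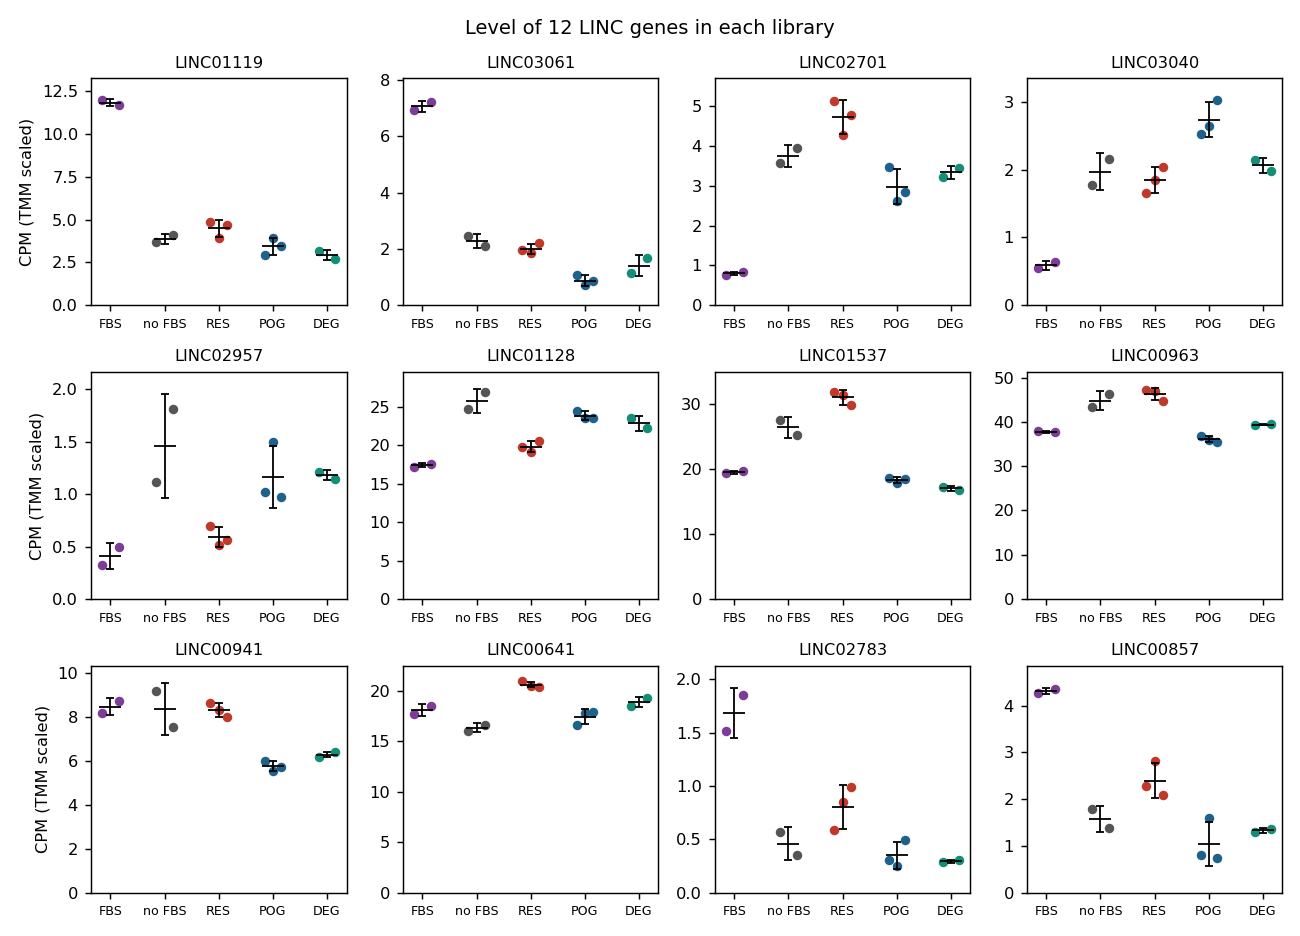
TMM-scaled CPM (vertical axis, from 0) of 12 LINC genes in each library, by group: FBS is the positive control and no FBS the negative control. Points are libraries, horizontal bars the group mean and error bars the SD (n = 2 or 3). LINC01119 and LINC03061 stand highest with FBS, LINC02701 and LINC03040 lowest with FBS, and LINC01537 is highest with RES and lowest with DEG.

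Compared directly, more members were called between POG and RES than for either against the negative control. Between POG and RES 50 members were called (28.6%), 12 higher and 38 lower with POG, beside 27.9% of all genes tested, divided into 13.7% higher and 14.1% lower. The median log2 fold change was −0.12 in the members and −0.000725 in all genes. DEG against RES gave 32 members (18.3%), 5 higher and 27 lower, beside 21.2% of all genes tested (10.3% higher and 10.8% lower). Leaving out DEG replicate 1 gave 18 calls, and leaving out DEG replicate 2 gave 16. The RES libraries are shared by both comparisons. With 3 libraries on each side the POG and RES comparison also has the most libraries behind it.

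LINC01537 again stood out, at log2 −0.76 for POG against RES (SE 0.05, adjusted p = 4.66e-43) and −0.87 for DEG against RES (SE 0.06, adjusted p = 3.97e-41). LINC01252 had 0.466, 0.567 and 0.495 CPM with POG and 1.01, 1.30 and 1.59 with RES (log2 −1.35). LINC01085 had 0.466, 0.839 and 0.258 CPM with POG and 1.17, 1.27 and 1.39 with RES (log2 −1.30, SE 0.29), and LINC01465 differed by −1.30 (SE 0.38). LINC00857 had 0.799, 1.59 and 0.753 CPM with POG against 2.29, 2.82 and 2.09 with RES (log2 −1.20, SE 0.21). In each of these genes the highest POG library was below the lowest RES library. The naming rule required this of LINC01252, LINC01085 and LINC01465.

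The 3 genes that RES lowered were higher with POG and with DEG than with RES. They were picked by the same RES libraries that serve as the reference here, which favours higher values with POG and DEG. LINC02957 had 1.02, 1.497 and 0.968 CPM with POG and 1.214 and 1.145 with DEG, against 0.695, 0.514 and 0.561 with RES. The differences were 0.97 for POG (SE 0.28, adjusted p = 0.00281) and 0.9955 for DEG (SE 0.31, adjusted p = 0.00784) on the log2 scale. The first was lost without POG replicate 2 (adjusted p = 0.0526) and the second without either DEG library. LINC01128 differed from RES by 0.27 with POG and 0.21 with DEG, and LINC00997 by 0.37 and 0.33, where the DEG values lost their call without DEG replicate 1 (adjusted p = 0.210 and 0.104) and that of LINC01128 also without RES replicate 2 (adjusted p = 0.0559). LINC02256 and LINC02454 were also higher with POG than with RES (log2 0.77 and 0.58), the former losing its call in 5 of 12 alternatives.

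For DEG against RES, LINC02783 had 0.284 and 0.305 CPM against 0.583, 0.849 and 0.987 (log2 −1.44, SE 0.40), and LINC01852 had 0.388 and 0.458 against 1.14, 0.872 and 0.808 (log2 −1.15). Both lost their call without DEG replicate 1. LINC01852 lost it in 3 of 11 alternatives, among them the exact test without RES replicate 1 (adjusted p = 0.0593). LINC01347 was higher with DEG (log2 0.49, adjusted p = 0.04965), a call lost in 6 of 12 alternatives, plain library totals among them.

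POG and DEG differed in 1 member by the edgeR exact test (0.571%), beside 1.05% of all genes tested (0.55% higher and 0.497% lower with DEG), with 14 members at an unadjusted p under 0.05. The quasi-likelihood test and DESeq2 called 0. The member was LINC02762, at 5.22 and 3.87 CPM with DEG and 2.73, 3.58 and 2.67 with POG (log2 0.60, 95% interval 0.27 to 0.93, adjusted p = 0.0399), and it lost its call in 5 of 12 alternatives. For LINC01537 the difference was −0.11 with a 95% interval of −0.23 to 0.02, for LINC00963 it was 0.13 (0.03 to 0.22) and for LINC03061 0.68 (0.24 to 1.13), none past the threshold after adjustment. Over the members the interval reached a median of 0.446 to either side on the log2 scale, so that smaller differences between POG and DEG were mostly not detectable at this depth and number of libraries.

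The serum comparison and the POG against RES comparison have no library in common. Across the 175 members their log2 fold changes had a Pearson correlation of −0.39 (Spearman −0.31), given as a description because genes share libraries and are not replicates, while over all genes tested it was −0.11 (−0.08). Both comparisons called 25 members, 39.7% of the serum calls and 25 of the 50 POG and RES calls. Over all genes tested both called 2752, which is 37.98% of the serum calls and 57.8% of the POG and RES calls, 1192 moving alike and 1560 oppositely, so the members' 11 and 14 lay near the background. Of the 25 members, 7 were higher with FBS and lower with POG than with RES, 7 the reverse, 10 lower in both and 1 higher in both. The first kind held LINC03061, LINC02783, LINC00857, LINC01085 and LINC01119, and the second held LINC02957, LINC03040, LINC01128 and LINC00997. LINC02701 and LINC01537 were lower in both, and LINC02454 was the gene higher in both. The LINC01119 call for POG against RES was lost without RES replicate 1 or POG replicate 1 (adjusted p = 0.0514 and 0.0831), and the LINC02454 call with FBS without negative control replicate 1 (adjusted p = 0.137).

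**Figure D4:**
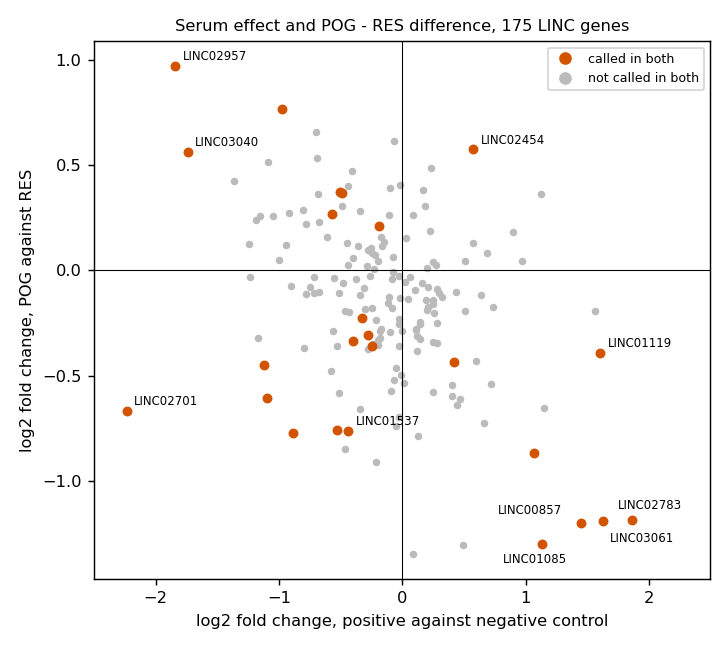
Log2 fold change with serum (horizontal axis) and of POG against RES (vertical axis) for the 175 LINC genes; orange points were called in both comparisons, which share no library. Orange points lie in the upper left (LINC02957, LINC03040), the lower right (LINC03061, LINC01085) and the lower left (LINC02701, LINC01537), with LINC02454 alone at the upper right.

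Of 16 LINC genes listed for a known role, 11 were members. With FBS 4 of them were called (36.4%, beside 42.4% of all genes tested), LINC01116 (log2 0.42), LINC00707 (0.51), LINC01133 (1.07) and LINC00963. LINC01133, which binds the splicing factor SRSF6, lost that call in 6 of 10 alternatives. It met the level threshold only through its highest group, and its rise was largest with FBS (log2 1.07, beside 1.05 with RES, not called). Its difference with FBS is therefore a description only. With RES 0 of the 11 were called by the edgeR exact test at this FDR, beside 11.2% of all genes tested. With POG 4 were called, beside 14.5% of all genes, and all fell (LINC00963, LINC00941, LINC00511 and LINC01503). With DEG 2 fell (LINC00963 and LINC00941), beside 9.63% of all genes. Both calls were lost on leaving out either DEG library, and also without negative control replicate 2 for LINC00963 (adjusted p = 0.287) and without negative control replicate 1 for LINC00941 (adjusted p = 0.340). LINC00941 had 6.20 and 6.39 CPM with DEG. LINC00339, LINC00467, LINC00520 and LINC01278 were called in none of the 7 comparisons. LINC01278 kept between 18.6 and 21.9 CPM in every library.

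Some changes ran beside those of the nearest protein-coding gene and others did not. A neighbour was tested for 140 members. With FBS the log2 fold changes of member and neighbour had the same sign in 80 of the 140 pairs (Pearson 0.26, Spearman 0.15, a description), and where both were called 17 pairs had the same direction and 14 opposite ones. LINC02605 and IL7, an interleukin gene, fell together (log2 −1.16 and −1.35), and LINC03015 rose with FAM20C, the kinase gene of secreted bone proteins (1.12 and 1.91). LINC00857 rose with ANXA11 (1.45 and 0.48). LINC02701 fell while MRPL21 rose (−2.23 and 0.36), and LINC01537 fell while PDE2A rose (−0.44 and 0.59). For POG against RES both members of a pair were called in 12 pairs with the same sign and 4 with opposite signs. LINC00605 and TNFAIP2 were both lower with POG (−0.85 and −0.34). LINC00605 met the level threshold only through its highest group, RES, which this comparison uses, so its difference is a description only.

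Better-known lncRNAs outside the LINC naming did not follow a single direction. Of 40 such genes listed, 23 were tested, and 11 were called with FBS (47.8%, beside 42.4% of all genes tested), 5 higher and 6 lower. GAS5, which accumulates in growth-arrested cells, was higher with FBS (log2 0.37), and MALAT1, MEG3, MIAT and OIP5-AS1 were lower (−0.43, −0.36, −0.82 and −0.46). With RES 7 were called (30.4%, beside 11.2%), all lower, among them MEG3 (−0.27) and NEAT1 (−0.21), the scaffold of nuclear paraspeckles. With POG 9 were called (39.1%, beside 14.5%), 4 higher and 5 lower, and with DEG 7 (30.4%, beside 9.63%), 4 higher and 3 lower. NEAT1 was lower with each compound (−0.23 with POG and −0.42 with DEG), against the same negative control libraries. NEAT1 and MALAT1 were also the 2 listed genes lower with DEG than with POG.

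Among 18 genes for making, processing or degrading polyadenylated non-coding RNA, 11 were called with FBS (61.1%, beside 42.4% of all genes tested), 9 higher and 2 lower, by at most 0.24 on the log2 scale. Higher were the nuclear exosome helicase MTREX (log2 0.20), the exonuclease XRN2 (0.13) and the decay factor UPF1 (0.17), and lower were DICER1 (−0.20), which cuts microRNA precursors, and the export receptor NXF1 (−0.18). With RES 1 was called (5.56%, beside 11.2%), with POG 1 (5.56%, beside 14.5%) and with DEG 2 (11.1%, beside 9.63%). Whether these differences had a part in the levels of the members was not tested.

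The share of members called differed with their level. With FBS it was 19 of 40 at 5 CPM or more, 30 of 77 from 1 to 5 CPM and 14 of 58 below 1 CPM, and for POG against RES it was 21 of 40, 19 of 77 and 10 of 58. For RES against the negative control it was 6 of 40, 0 of 77 and 1 of 58. No share over all genes at the same levels is given, so these counts are descriptions only. The 115 members with no exon overlap gave 44 calls with FBS, 10 higher and 34 lower, and the 60 with an overlap gave 19, 8 higher and 11 lower. For POG against RES the 115 gave 3 higher and 24 lower, and the 60 gave 9 higher and 14 lower. In both comparisons falls outnumbered rises in either class, and no share over all genes is given for these classes. The classes rest on release 44 exon models, which may differ from those used for counting. Whether shared reads had a part in the levels was not tested.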

How the data were processed

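Poly(A)-selected libraries (2 positive control, 2 negative control, 3 RES, 3 POG and 2 DEG) were made with a stranded mRNA kit and sequenced on a NovaSeq. Per the labels, the submitters' processing notes name STAR, featureCounts, edgeR and hg38; versions, annotation release and strand setting are not given in the sources used here. The deposited values were raw read counts per Ensembl gene. Identifiers were matched without their version to GENCODE release 44 (43177 of 43836 matched, 659 did not). The members and gene lists were chosen with earlier results of these data known. Named genes were the 6 most abundant members, the largest called changes with no overlap between groups (up to 4 each way against the negative control, 3 between compounds), members called in opposite directions with serum and a compound, the list of known LINC genes and those at the threshold; genes named as pairs with neighbours, LINC00857, LINC00605, LINC02605 and LINC03015 among them, were chosen after their values were seen.

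Counts were analysed in R 4.3.3 with edgeR 4.0.16: filterByExpr by group (17092 genes kept), TMM scaling, dispersions over all 12 libraries, exactTest per comparison and a quasi-likelihood F test over the 5 groups, with Benjamini-Hochberg adjustment over all genes tested and FDR under 0.05. Standard errors and 95% intervals came from the generalised linear model fit. DESeq2 1.42.0, other scalings, filters and thresholds, and leaving out each library, were alternatives. The pipeline was tested on simulated counts for the 17092 genes with 200 changed: 158 were recovered with 9 false calls for the serum comparison and 164 with 15 for RES. Figures were drawn with matplotlib. Total counts per library set the precision of low members, which had as few as 260 reads over all libraries.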

Additional observations from a re-analysis of the deposited data

Results flagged for a closer look

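LINC01537 was the member whose compound effects were called in opposite directions and whose difference between compounds was itself called by the edgeR exact test: higher than the negative control with RES, lower with POG and with DEG. The difference was −0.76 on the log2 scale for POG against RES (adjusted p = 4.66e-43) and −0.87 for DEG against RES (adjusted p = 3.97e-41), and every POG and DEG library lay below every RES library. PDE2A, its nearest protein-coding gene, differed by −0.20 for POG against RES (adjusted p = 0.0894) and −0.35 for DEG against RES (adjusted p = 0.006495). The rise with RES, on which the opposite directions rest, lost its call without negative control replicate 2 (adjusted p = 0.174).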

How the results depend on the processing

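At an FDR under 0.01 in place of 0.05, 40 members were called for serum, 4 for DEG against the negative control, 33 for POG against RES and 0 for DEG against POG. For RES against the negative control, a filter on a mean of at least 1 CPM gave 11 calls and dispersions from the 2 groups compared gave 15. For DEG against POG, the quasi-likelihood test gave 0, DESeq2 gave 0 and dispersions from the 2 groups gave 2. Among the 5 groups 75 members differed and 42 without the positive controls. Leaving out 1 library at a time gave 44 to 51 calls for serum, 4 to 9 for RES, 6 to 16 for POG and 3 to 6 for DEG against the negative control, 37 to 44 for POG against RES, 16 to 30 for DEG against RES, 0 to 1 for DEG against POG and 69 to 75 among the groups. Plain library totals changed the RES split from 4 higher and 3 lower to 7 and 3, or 57.1% to 70.0% higher, and changed the serum split over all genes from 50.6% to 41.05% higher, while the members gave 18 higher and 50 lower. The alternatives were applied to 93 pairs of a named member and a comparison that were already called in the main test. Of the 1084 values, 0 reversed their direction, 930 kept their side of the threshold and 154 lost it. Of the 93 pairs, 47 kept their call throughout. The alternatives reuse the same counts, so reversals were unlikely from the start. Where a threshold, a smaller set of genes tested or fewer libraries changed a count, that change is part of the alternative; for the other settings the cause was not tested. A left-out library that leaves 1 in its group assumes that it varies like the other groups. No paired analysis was possible because the labels give the libraries no replicate numbers that link groups. Members below 1 CPM rest on few reads, and small differences in them were not detectable.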

Other observations

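Below the 0.5 CPM threshold 118 more LINC genes were tested. With serum 19 of them (16.1%) were called by the edgeR exact test, beside 42.4% of all genes tested. Of the 19, 12 were higher and 7 lower, while 21.4% of all genes tested were higher and 20.9% lower. These genes rest on few reads. LINC01301 had 53 and 33 reads with FBS and 8 and 12 without (log2 1.86, SE 0.46), LINC02246 had 54 and 21 against 7 and 5 (log2 2.37, SE 0.56), and LINC01615 had 19 and 38 against 5 and 6 (log2 2.155, SE 0.56). LINC02910 had 56 reads over the 3 RES libraries, 6 over the 3 with POG and 7 over both negative controls. It was called for RES against the negative control (log2 2.195, SE 0.70) and for POG against RES (log2 −3.165, SE 0.67). Its FBS libraries held 14 and 25 reads, so the RES and FBS groups, where it was high, carried it past the filter on low counts. That favours both calls. For LINC00937, 28 reads came from POG libraries and 1 from a RES library (log2 4.35, SE 1.17). These genes were chosen after their values were seen. Genes this low may pass the filter only through groups where they are high, so their differences are a description only.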
